A study of Homo sapiens with 40 samples.

Results

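The 10 genes described here encode AP-1 subunits and early growth response factors: FOS, FOSB, FOSL1, FOSL2, JUN, JUNB, JUND, ATF3, EGR1 and EGR3, out of 60708 genes in each count file. They were chosen by symbol with earlier results of these counts known, and the choice used no threshold and no contrast. Each library's counts in all 8 groups belong to the rule, so the levels are descriptions and the p-values refer to single genes, adjusted over all genes tested. The study asked how TGFβ acts on normal and HRAS-transformed mammary epithelial spheres and on triple-negative breast cancer cells. Total RNA was sequenced in 24 libraries, 3 in each of 8 groups, that the labels name biological replicates. MI-spheres were grown from MCF-10A, an immortalized human breast epithelial line, and MII-spheres from its HRAS-transformed derivative MCF-10AneoT, both in ultra-low attachment plates. Spheres were left unstimulated (MI Ctrl, MII Ctrl) or received TGFβ1 at 2.5 ng/ml for 16 h (MI TGFβ, MII TGFβ). MDA-MB-231, a triple-negative breast cancer line, was grown as a monolayer and was untreated (WT), edited by CRISPR/Cas9 in SNAI2, the gene of SLUG (SLUG KO), transfected with a scramble siRNA (Csi), or transfected with siRNAs against SMAD2, SMAD3 and SMAD4 (siSMAD2/3/4). The labels give no TGFβ stimulation for any MDA-MB-231 group. The SLUG KO cells were expanded from single-cell colonies, and how many clones the 3 libraries hold is not given in the sources used here.

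AP-1 is a dimeric transcription factor in which a FOS protein pairs with a JUN protein through a leucine zipper, while JUN proteins can also pair among themselves or with ATF proteins. FOS, FOSB, JUN, JUNB, ATF3, EGR1 and EGR3 are immediate early genes: serum, growth factors and stress induce them within minutes through ERK, JNK and p38 kinases, serum response factor and CREB-type activators, and their mRNAs are short-lived. FOSL1, which encodes FRA-1, is a more sustained output of RAS and ERK signalling and is known for high levels in mesenchymal-like breast cancer cells, whereas JUND is expressed broadly in unstimulated cells. EGR1 and EGR3 are zinc finger factors that bind GC-rich elements and share the upstream ERK and serum response input with FOS. SMAD3 and SMAD4, the effectors of TGFβ receptors, can bind DNA together with AP-1, and ATF3 is a partner of SMAD3 on the ID1 promoter.

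Of the 10 genes, JUNB, JUND and FOSB lie on chromosome 19 (GRCh38, chr19:12791486-12793315, chr19:18279694-18281622 and chr19:45467995-45475179). JUN and ATF3 lie on chromosome 1 (chr1:58776845-58784048 and chr1:212565334-212620777), FOS on chromosome 14 (chr14:75278826-75282230), FOSL1 on chromosome 11 (chr11:65892049-65900573), FOSL2 on chromosome 2 (chr2:28392448-28417317) and EGR1 on chromosome 5 (chr5:138465479-138469303). Reads were assigned to the union of a gene's exons without regard to strand. For JUNB, 259 exonic bases, 14.2% of its exon length, overlap the exons of HOOK2 on the opposite strand. EGR3 shares 164 bases, 3.26% of its exon length, with an unnamed gene on the opposite strand, and reads in these stretches cannot be told apart. The other 8 members share no exonic base with another gene.

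Promoter windows of RefSeq (GRCh38.p14, 250 bases before the transcription start and 50 after it) were matched to 8 members. FOSL1 had no entry and EGR3 was not searched. Both strands were searched for the AP-1 motif TGACTCA, the cyclic AMP response element TGACGTCA, the SMAD element CAGACA, the EGR element GCGTGGGCG and the CArG box that serum response factor binds. No motif contains another. Shown are the 250 bases upstream of the start, 5′ to 3′ on the gene's strand, of EGR1, FOS and FOSB, whose mRNA fell by the most in TGFβ-treated MII-spheres among genes with a window, and of JUND, whose level differed most between batches of MDA-MB-231. Capitals mark the motif matches.
EGR1 (chr5:138465229-138465478, plus strand): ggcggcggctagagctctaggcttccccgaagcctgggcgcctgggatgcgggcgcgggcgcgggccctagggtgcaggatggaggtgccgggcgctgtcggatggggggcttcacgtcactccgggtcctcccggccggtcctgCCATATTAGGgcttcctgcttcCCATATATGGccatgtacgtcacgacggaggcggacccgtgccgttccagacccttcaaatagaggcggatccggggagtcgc
FOS (chr14:75278578-75278827, plus strand): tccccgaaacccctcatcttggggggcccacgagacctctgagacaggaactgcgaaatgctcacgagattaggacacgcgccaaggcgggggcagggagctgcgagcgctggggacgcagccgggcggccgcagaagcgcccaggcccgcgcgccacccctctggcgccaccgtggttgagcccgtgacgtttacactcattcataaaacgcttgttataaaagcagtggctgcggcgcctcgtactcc
FOSB (chr19:45467746-45467995, plus strand): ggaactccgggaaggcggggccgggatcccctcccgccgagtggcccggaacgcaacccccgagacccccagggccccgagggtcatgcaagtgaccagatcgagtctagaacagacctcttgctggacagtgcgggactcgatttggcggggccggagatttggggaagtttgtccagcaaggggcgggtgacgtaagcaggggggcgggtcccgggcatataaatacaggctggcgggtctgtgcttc
JUND (chr19:18281623-18281872, minus strand): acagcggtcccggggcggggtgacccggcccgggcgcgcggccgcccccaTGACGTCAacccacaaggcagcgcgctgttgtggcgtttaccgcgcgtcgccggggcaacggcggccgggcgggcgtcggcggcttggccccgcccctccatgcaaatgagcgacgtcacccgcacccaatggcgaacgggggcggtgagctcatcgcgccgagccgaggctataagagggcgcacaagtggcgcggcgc

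The EGR1 window held a pair of CArG boxes, the first bases at -105 and -83 from the start, and 1.29% of all 35116 windows hold such a box. The JUND window held the cyclic AMP response element at -200, found in 1.85% of windows. FOSL2 carried the AP-1 motif just after its start, with its first base at position 4, and 4.95% of windows carry it. The SMAD element CAGACA, present in 16.9% of windows, and the EGR element, present in 0.795%, were in none of the 8 members' windows. Those of FOS and FOSB, shown for comparison with EGR1, held none of the 5 motifs. A match describes letters in these windows and is not evidence of binding. The shorter CAGA, which the study names as a SMAD-bound sequence, was not searched for. It occurs in the windows of EGR1, FOS and FOSB shown above, so the absence of CAGACA does not mean that SMAD-binding letters are absent. The serum response element for which FOS is known lies farther upstream than the bases shown.

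Libraries held 14124688 to 38406952 counts assigned to genes. Between replicates of a group other than WT, Pearson's r of log2 CPM was at least 0.984. WT replicate 2 stood apart from WT replicates 1 and 3 (r of 0.957 and 0.952, against 0.989 between the latter), had 2.40% mitochondrial counts, and had relatively more counts in GC-rich genes. Csi and siSMAD2/3/4 carry another batch label than the other groups. The flow cell named for siSMAD2/3/4 replicates 1 and 2 differs from that of the remaining 4 libraries of this pair, so the members' results in that pair, and the counts of related gene lists, are also given for those 4. HRAS reached 220.2 ± 4.10 CPM (counts scaled to a common library size; mean ± SD, n = 3, as throughout) in MII Ctrl against 40.7 ± 1.01 in MI Ctrl. SMAD2 was at 23.9 ± 0.367 CPM against 90.5 ± 1.67 in Csi, SMAD4 at 16.8 ± 1.11 against 55.3 ± 1.204 and SMAD3 at 165 ± 6.82 against 266 ± 5.99. SNAI2 mRNA was higher in the libraries labelled SLUG KO (61.8 ± 3.59 CPM) than in WT (28.3 ± 6.62 CPM). The guide cut at the start of exon 1, so the count over the whole gene does not check the edit. Spheres expressed the basal keratin KRT5 (106.6 ± 2.47 CPM in MI Ctrl, 18.9 ± 1.07 in MII Ctrl), with TP63, another basal marker, at 51.2 ± 2.28 CPM in MI Ctrl and only 0.621 ± 0.136 in MII Ctrl. Of 7 basal markers, 3 were higher and 4 lower in MII Ctrl than in MI Ctrl (adjusted p under 0.05 in edgeR). Among the higher were KRT14 (5.35-fold) and EPCAM (3.02-fold), and among the lower KRT17 (3.86-fold) and TP63. MDA-MB-231 cells expressed the mesenchymal marker VIM (784 ± 194 CPM in WT).

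The levels of some members split by cell line. FOS, FOSB and JUNB mRNA was high in spheres and low in MDA-MB-231, and FOSL1 was the reverse. FOS had 321 ± 3.90 CPM in MI Ctrl and 204 ± 2.79 CPM in MII Ctrl, against 2.86 ± 0.107 in WT, after TMM scaling over the 24 libraries. FOSL1 had 5.06 ± 0.974 CPM in MI Ctrl, and its 12 MDA-MB-231 libraries ran from 58.5 to 378 CPM. No sphere library overlapped an MDA-MB-231 library for FOS, FOSB, FOSL1 or JUNB. EGR1 did not overlap either, though narrowly (11.0 CPM in MI TGFβ replicate 3, 9.82 CPM in WT replicate 2). FOSL2, JUN, JUND, ATF3 and EGR3 overlapped. The share of all genes that separate in this way was not counted, so whether the separation is particular to these members cannot be said. Cell line, culture form and, for Csi and siSMAD2/3/4, batch cannot be told apart in this contrast, so no test was made. Ordered by mean, FOS ran MI Ctrl, MI TGFβ, MII Ctrl, MII TGFβ, and then the MDA-MB-231 groups, and MI TGFβ and MII Ctrl were within 1 SD of each other. EGR1 had its highest level in MII Ctrl (97.1 ± 1.86 CPM), then in MI Ctrl (45.04 ± 0.347), and the TGFβ-treated groups of the 2 lines lay within 1 SD of each other. ATF3 was also highest in MII Ctrl (25.1 ± 0.682 CPM), and MI TGFβ (6.38 ± 1.85 CPM) was near the bottom beside WT (5.61 ± 1.48 CPM). By mean, JUND was lowest in MI TGFβ and MII TGFβ (22.4 ± 1.54 and 21.5 ± 1.004 CPM, within 1 SD of each other) and highest in siSMAD2/3/4 (238.3 ± 29.4 CPM). WT replicates 1 and 3 had JUND at 22.4 and 23.8 CPM, within the range of MI TGFβ, and WT replicate 2 at 86.5 CPM. In such bulk samples, fewer cells that express a gene and less mRNA per cell cannot be told apart.

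**Figure D1:**
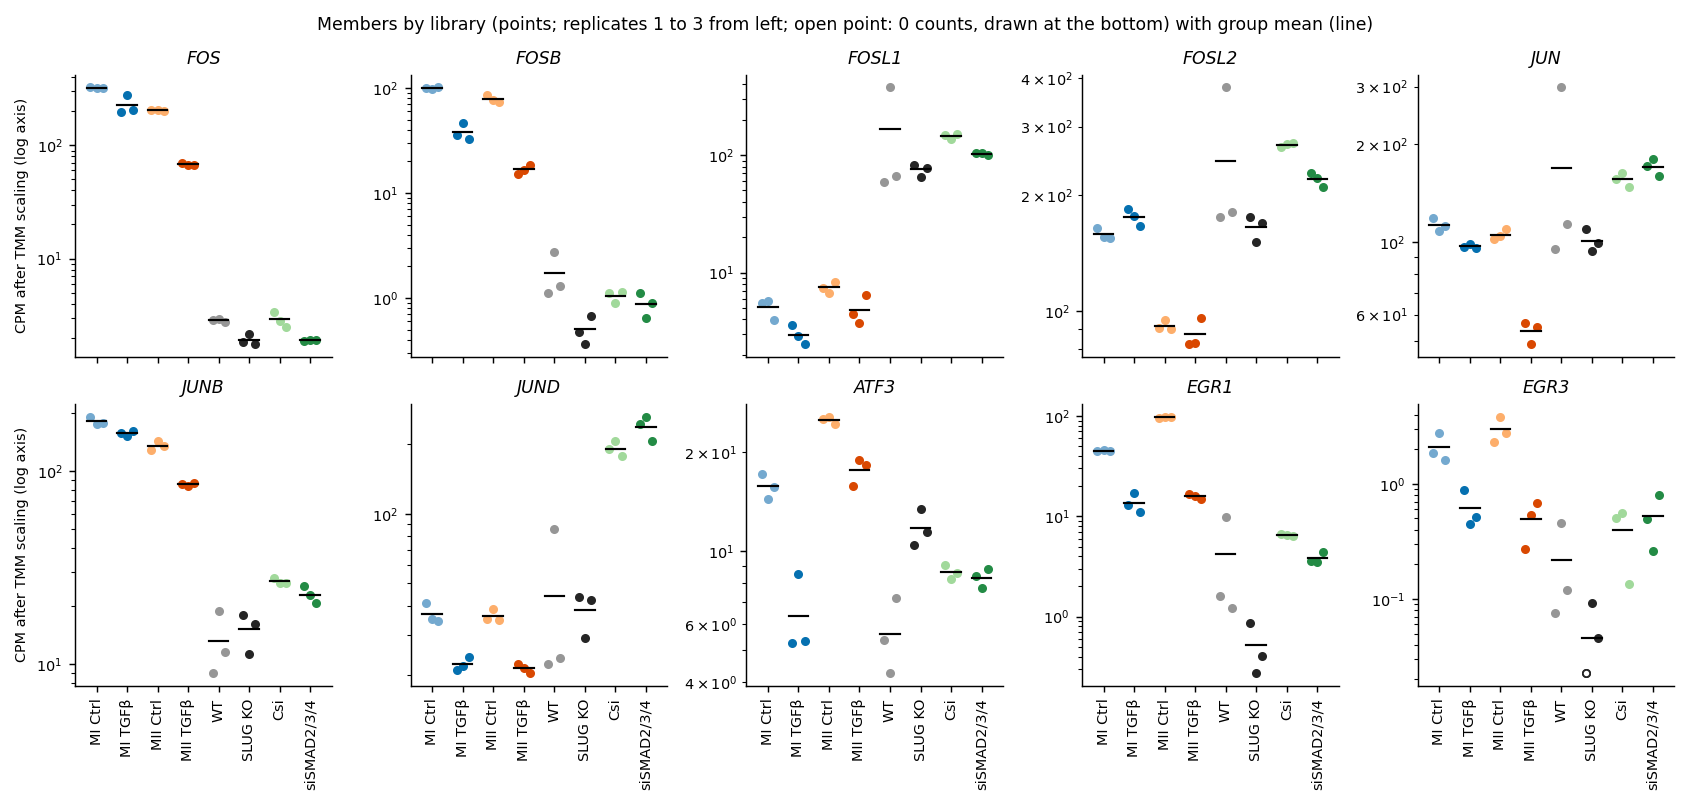
CPM after TMM scaling (y axis, log scale) of the 10 genes in each of the 24 libraries (points, replicates 1 to 3 from left) with the group mean as a line, 1 panel per gene and 8 groups on the x axis. FOS, FOSB and JUNB are high in the 4 sphere groups and FOSL1 in the 4 MDA-MB-231 groups, TGFβ-treated spheres lie below unstimulated ones for most genes, and WT replicate 2 is the high WT point for FOSL1, FOSL2, JUN, JUND and EGR1.

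TGFβ was followed by lower mRNA of 9 of the 10 genes in MI-spheres and of 9 of the 10 in MII-spheres, and no member was called higher in either line. FOSL2 was the member not called in both lines. Among all genes tested in MI-spheres, 28.7% were called higher and 27.4% lower, and in MII-spheres 29.9% were higher and 27.6% lower, a call being an adjusted p under 0.05 in edgeR's quasi-likelihood test. DESeq2 called no member higher either, and no member passed an unadjusted p of 0.05 in that direction. The median log2 fold-change of the 10 was -0.84 in MI-spheres and -0.91 in MII-spheres, beside -0.02 in both over all genes tested. The fold-changes were estimated within each pair of groups, so they can differ slightly from ratios of the CPM, which were scaled over 24 libraries. The p-values measure the spread between these replicates, and whether the replicates were set up on separate occasions is not given in the sources used here.

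Within the FOS family, FOS, the prototype of the family, was at 325, 319 and 318 CPM in the 3 MI Ctrl libraries and at 198, 277 and 205 CPM in the 3 MI TGFβ libraries. The treated libraries were all lower, with replicate 2 nearest to the controls. The log2 fold-change was -0.58 ± 0.09 (SE; 1.495-fold lower, adjusted p = 1.13e-05). In MII-spheres, FOS was at 207, 204 and 201 CPM without and 70.4, 67.1 and 67.2 CPM with TGFβ. The gap was far wider than the spread of either group, 3.06-fold (log2 -1.61 ± 0.04, adjusted p = 2.00e-35). FOSB, which encodes a FOS-like activator, went from 99.2, 98.1 and 101.3 CPM to 35.8, 46.8 and 32.8 CPM in MI-spheres, 2.73-fold lower (log2 -1.45 ± 0.09, adjusted p = 2.95e-11). It went from 85.3, 77.3 and 73.5 CPM to 15.3, 16.4 and 18.6 CPM in MII-spheres, 4.80-fold lower (log2 -2.26 ± 0.07, adjusted p = 2.02e-32). Again no library of one group overlapped the other.

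The FOS-related antigens lack the transactivation domain of FOS. FOSL1 was a minor transcript of spheres, at 5.51, 5.73 and 3.94 CPM in MI Ctrl and 3.56, 2.87 and 2.47 CPM in MI TGFβ (log2 -0.87 ± 0.19, adjusted p = 0.000447). In MII-spheres it was at 7.41, 6.76 and 8.27 CPM and 4.39, 3.73 and 6.38 CPM (log2 -0.65 ± 0.16, adjusted p = 0.000397). MII TGFβ replicate 3 lay closest to the controls, and the groups did not overlap. FOSL2, which encodes FRA-2, was at 165, 156 and 155 CPM in MI Ctrl and 184, 177 and 166 CPM in MI TGFβ, a log2 fold-change of 0.07 ± 0.06 (adjusted p = 0.321, 95% interval -0.04 to 0.17). On this CPM scale the treated libraries were all slightly higher, while within the pair the difference did not pass the test. In MII-spheres FOSL2 was at 90.8, 94.9 and 89.9 CPM and 82.5, 83.1 and 96.0 CPM, and the groups overlapped (log2 -0.11 ± 0.05, adjusted p = 0.0578, 95% interval -0.21 to -0.01). Without MI TGFβ replicate 3 FOSL2 was called higher in MI-spheres (log2 0.13, adjusted p = 0.0161), as it was after the GC-content correction (adjusted p = 0.0317). Without MII TGFβ replicate 3 it was called lower in MII-spheres (log2 -0.18, adjusted p = 0.00562), as it was when only genes with at least 10 counts in every library were tested (log2 -0.15, adjusted p = 0.0102).

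The JUN family fell in both lines. JUN, the family's strongest activator, was at 119.003, 108.1 and 112.4 CPM in MI Ctrl and 96.6, 98.9 and 96.3 CPM in MI TGFβ, a small and reproducible difference (log2 -0.30 ± 0.05, 1.23-fold, adjusted p = 9.04e-05). In MII-spheres it was at 102.4, 104.6 and 109.5 CPM and 56.5, 48.8 and 55.01 CPM, 2.02-fold lower (log2 -1.02 ± 0.05, adjusted p = 8.71e-23). JUNB, an early gene that can antagonize JUN, was at 192, 176 and 178 CPM and 158, 152 and 162 CPM in MI-spheres (log2 -0.30 ± 0.05, adjusted p = 5.67e-05). This call was lost when each library's trend on transcript GC content was taken out, an alternative chosen after seeing the data (log2 -0.090, adjusted p = 0.131). In MII-spheres JUNB was at 128, 143 and 134 CPM and 85.8, 84.2 and 86.6 CPM, 1.62-fold lower (log2 -0.70 ± 0.05, adjusted p = 7.37e-19). JUND had nearly the same values in both lines, 41.3, 35.2 and 34.5 CPM to 21.2, 21.9 and 24.1 CPM in MI-spheres (log2 -0.81 ± 0.08, adjusted p = 3.24e-08). In MII-spheres it went from 35.0, 38.9 and 34.6 CPM to 22.4, 21.6 and 20.4 CPM (log2 -0.79 ± 0.07, adjusted p = 8.58e-14). For all 3 genes the treated libraries lay below every control library.

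ATF3, a stress-induced bZIP factor that mostly represses, was at 17.2, 14.4 and 15.7 CPM in MI Ctrl and 5.27, 8.51 and 5.36 CPM in MI TGFβ, 2.61-fold lower (log2 -1.38 ± 0.14, adjusted p = 7.08e-08). In MII-spheres it was at 25.3, 25.7 and 24.4 CPM and 15.8, 18.9 and 18.3 CPM, 1.46-fold lower (log2 -0.54 ± 0.08, adjusted p = 1.11e-07). The groups did not overlap in either line. EGR1, which carries the pair of CArG boxes shown above, was at 45.2, 45.2 and 44.6 CPM in MI Ctrl and 12.8, 16.9 and 11.0 CPM in MI TGFβ, 3.50-fold lower (log2 -1.81 ± 0.11, adjusted p = 9.31e-12). In MII-spheres EGR1 went from 95.01, 97.9 and 98.5 CPM to 16.5, 15.8 and 15.01 CPM, 6.32-fold lower (log2 -2.66 ± 0.06, adjusted p = 1.34e-37). Treated spheres of both lines thus held similar EGR1 levels, from starting levels that differed. EGR3 was rare, with 48, 58 and 31 counts in MI Ctrl and 16, 10 and 12 in MI TGFβ, and 35, 115 and 50 counts in MII Ctrl and 4, 8 and 10 in MII TGFβ. As CPM the treated libraries were all lower, 3.66-fold in MI-spheres (log2 -1.87 ± 0.33, adjusted p = 7.35e-05) and 6.29-fold in MII-spheres (log2 -2.65 ± 0.33, adjusted p = 1.13e-09).

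Markers and library composition moved beside these values. The summed CPM of 7 basal epithelial markers was 2099.9 to 2153 in MI Ctrl and 3841 to 4132 in MI TGFβ, and 1160.0 to 1208 in MII Ctrl and 2481 to 2605 in MII TGFβ, with 6 of 7 called higher in each line. The summed CPM of 7 leukocyte and endothelial markers was 31.3 to 34.7 in MI Ctrl and 13.4 to 14.8 in MI TGFβ, and 114 to 117 in MII Ctrl and 96.3 to 107.986 in MII TGFβ, where PECAM1 made up most of it (104.6 ± 1.71 CPM in MII Ctrl). The leukocyte genes PTPRC, CD3E and CD68 were each under 1 CPM in spheres. RN7SL1, the signal recognition particle RNA, took 7.44% to 9.34% of counts in MI Ctrl and 8.30% to 9.49% in MI TGFβ, and 3.36% to 3.78% in MII Ctrl and, without overlap, 5.99% to 6.61% in MII TGFβ. Mitochondrial counts were lower with TGFβ without overlap, at 0.687% to 0.789% in MI Ctrl and 0.423% to 0.572% in MI TGFβ, and at 1.41% to 1.66% in MII Ctrl and 1.02% to 1.18% in MII TGFβ. The part of these shifts in the members' values was not tested.

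The size of the TGFβ response differed between the lines for 6 of the 10 genes in a test of the interaction over the 12 sphere libraries. The decrease was larger in MII-spheres for FOS (difference of log2 fold-changes, MII minus MI, -1.02 ± 0.10, adjusted p = 3.35e-10), EGR1 (-0.84 ± 0.13, adjusted p = 2.52e-06), FOSB (-0.80 ± 0.13, adjusted p = 5.26e-06), JUN (-0.70 ± 0.08, adjusted p = 3.29e-09) and JUNB (-0.39 ± 0.07, adjusted p = 3.26e-05). ATF3 went the other way, with the larger decrease in MI-spheres (0.85 ± 0.16, adjusted p = 0.000126). Over all genes tested, 12.6% had a higher and 9.75% a lower response in MII-spheres by the same call. For FOSL1, FOSL2, JUND and EGR3 the difference did not pass the test, though FOSL2 passed without MI TGFβ replicate 3 (-0.25, adjusted p = 0.00355) or MII TGFβ replicate 3 (-0.28, adjusted p = 0.00951). The 95% interval was -0.19 to 0.24 for JUND, -0.32 to -0.01 for FOSL2, -0.27 to 0.73 for FOSL1 and -1.79 to 0.26 for EGR3, so that a response lower by 1 log2 unit in MII-spheres lies within the interval of EGR3 and outside that of JUND.

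**Figure D2:**
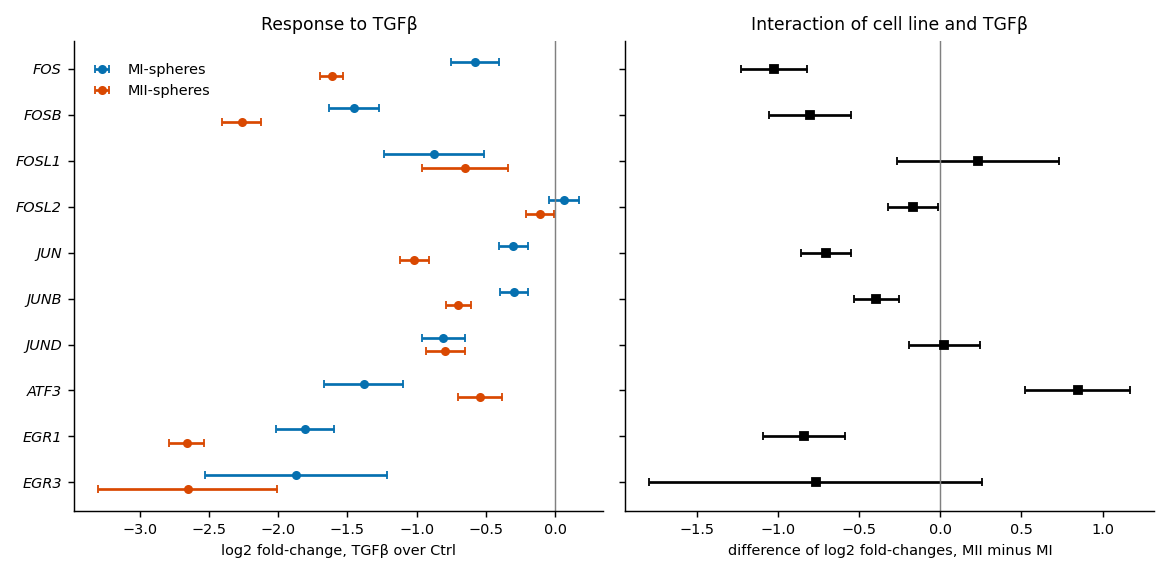
Left, log2 fold-change of TGFβ over Ctrl (x axis) for each of the 10 genes in MI-spheres (blue) and MII-spheres (orange), estimate with 95% interval from 3 against 3 libraries. Right, the difference of the 2 responses, MII minus MI. FOS, FOSB, JUN, JUNB and EGR1 lie left of 0 on the right, ATF3 lies right of 0, and the interval of JUND spans 0, from -0.19 to 0.24.

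Levels of different genes are comparable only per length, so TPM was used within each library. In MI Ctrl, FOS (181 ± 15.1 TPM) and JUNB (179 ± 20.9 TPM) were the most abundant of the 10 and did not differ beyond their spread, followed by JUN (56.1 ± 6.31 TPM). In MII Ctrl, JUNB (212 ± 17.1 TPM) exceeded FOS (183 ± 5.27 TPM), and EGR1 (88.6 ± 3.34 TPM) stood level with JUN (83.3 ± 3.14 TPM). With TGFβ, MII-spheres kept JUNB on top (96.8 ± 2.01 TPM), then FOS (44.3 ± 1.18 TPM). In Csi the order was JUND (402 ± 24.5 TPM), FOSL1 (313 ± 18.5 TPM), JUN (174 ± 6.52 TPM) and FOSL2 (152 ± 3.52 TPM). EGR3 was the lowest member in all 8 groups. TPM is not compared across groups here, because RN7SL1 took a share of counts that differed between groups. It was 7.44% to 9.49% in MI-spheres, 0.643% to 2.47% in WT and SLUG KO, and at most 0.000219% in Csi and siSMAD2/3/4.

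Shares within a family do not depend on that RNA. FOS made up 70.2% ± 0.209 of summed FOS-family TPM in MI Ctrl and 67.4% ± 0.353 in MII Ctrl. With TGFβ its share was 68.0% ± 3.46 in MI-spheres, within 1 SD of the control share, and 54.8% ± 3.16 in MII-spheres. The FOSB share went from 12.5% ± 0.317 to 6.63% ± 0.359 in MI-spheres and from 14.9% ± 0.863 to 7.69% ± 0.523 in MII-spheres. FOSL2, called in neither line with all 6 libraries and the default filter, took a larger share: 23.8% ± 3.27 against 15.4% ± 0.290 in MI-spheres and 31.0% ± 1.38 against 13.5% ± 0.459 in MII-spheres. In MDA-MB-231, FOSL1 provided 62.7% ± 1.05 in SLUG KO, 66.6% ± 1.07 in Csi and 63.5% ± 0.494 in siSMAD2/3/4, and FOS at most 1.12% ± 0.666, its mean in WT. WT replicate 2 had a FOSL1 share of 78.7%, against 54.9% and 57.3% in WT replicates 1 and 3.

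Among JUN-family mRNA, JUNB was the main member in spheres, with 66.4% ± 0.420 in MI Ctrl and 60.7% ± 0.712 in MII Ctrl. JUN was the main member in WT (61.3% ± 1.39) and in SLUG KO (50.1% ± 4.33). JUND was the main member in Csi (63.3% ± 0.919) and siSMAD2/3/4 (67.4% ± 1.45), beside 28.2% ± 4.04 in WT of the same cell line. JUND is the most GC-rich of the 10 transcripts (69.9% GC), and Csi differs from WT in batch as well as in transfection. JUND was 2.41 log2 units higher in Csi than in WT, and the median of the genes within 2 percentage points of its GC content was 1.33 log2 units higher. Without WT replicate 2 these values were 3.05 and 1.75. In Csi, RN7SL1 took at most 0.000219% of counts, against 0.643% to 2.13% in WT. Mitochondrial counts were 3.81% to 4.95% in Csi and 0.656% to 2.40% in WT. Transfection, batch and such differences of library content cannot be told apart here.

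**Figure D3:**
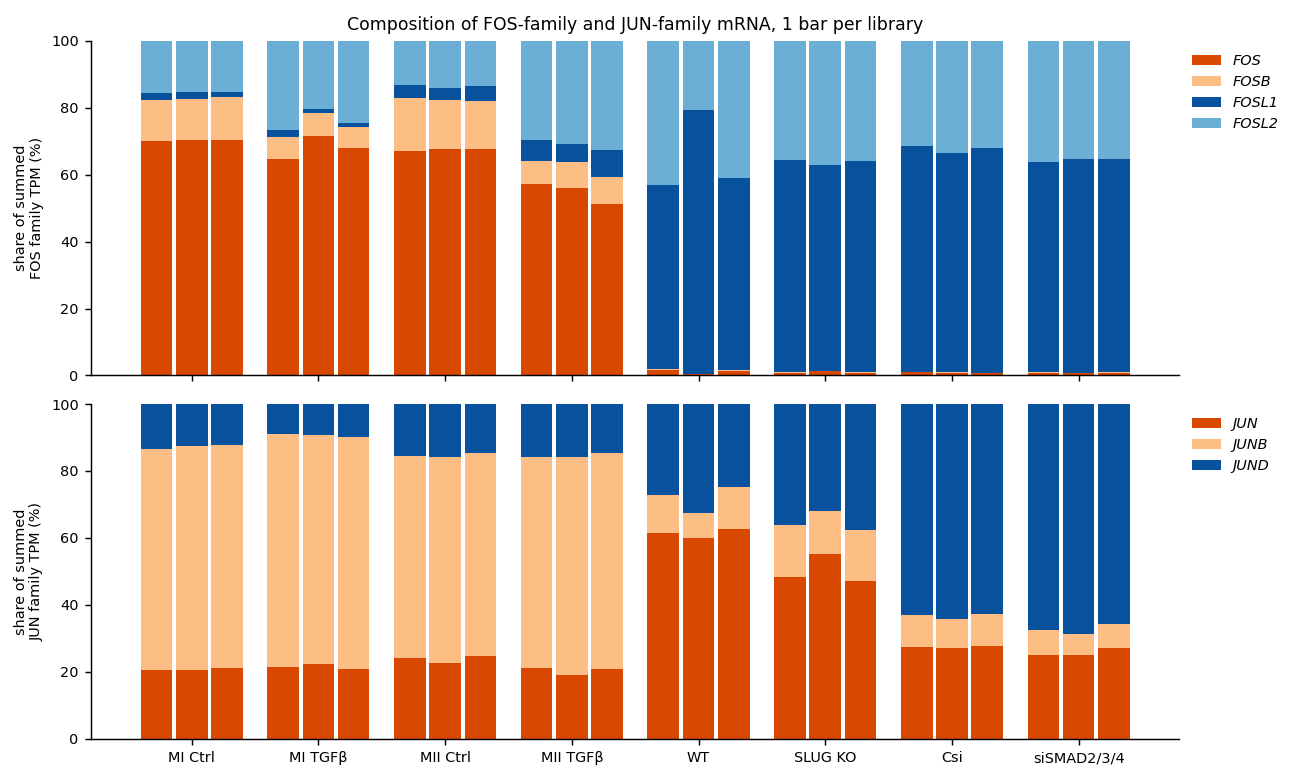
Share (y axis, %) of each gene in the summed TPM of the FOS family (top) and of the JUN family (bottom), 1 stacked bar for each of the 24 libraries in 8 groups. FOS and JUNB fill most of the sphere bars, FOSL1 and FOSL2 fill the MDA-MB-231 bars, and the largest JUN-family share passes from JUN in WT and SLUG KO to JUND in Csi and siSMAD2/3/4.

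Without TGFβ, HRAS-transformed MII-spheres held more EGR1 and ATF3 and less FOS, FOSB and FOSL2 than MI-spheres. Of the 10 members, 4 were higher and 4 lower in MII Ctrl than in MI Ctrl, and over all genes tested 31.7% were higher and 32.5% lower. EGR1 was 2.17-fold higher (log2 1.12 ± 0.05, adjusted p = 2.72e-27), ATF3 1.60-fold (log2 0.68 ± 0.08, adjusted p = 2.96e-11) and FOSL1 1.46-fold (log2 0.55 ± 0.14, adjusted p = 0.000483). EGR3 passed narrowly (log2 0.58 ± 0.22, adjusted p = 0.0206) and did not pass with DESeq2 (adjusted p = 0.184), and its CPM overlapped between the groups. The EGR3 call was also lost without MI Ctrl replicate 1 (adjusted p = 0.0857), MI Ctrl replicate 3 (0.111) or MII Ctrl replicate 2 (0.328), and with all 12 sphere libraries in 1 fit (0.0555). FOSL2 was 1.71-fold lower (log2 -0.77 ± 0.04, adjusted p = 2.28e-23), FOS 1.56-fold (log2 -0.64 ± 0.04, adjusted p = 9.68e-23), JUNB 1.33-fold and FOSB 1.26-fold. JUN (log2 -0.09 ± 0.04, adjusted p = 0.0612) and JUND (log2 -0.02 ± 0.06, 95% interval -0.15 to 0.11) were not called. Without MI Ctrl replicate 2 or MII Ctrl replicate 3, JUN was called lower (adjusted p = 0.0221 and 0.0354), as it was with no low-count filter (0.0138) and after the GC-content correction (0.0121), which also called JUND lower (log2 -0.16, adjusted p = 0.0149). MII-spheres also held HRAS at 5.45-fold the MI level and TP63 near 0, and the part of such differences between the lines in these values was not tested.

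With TGFβ, 2 members were higher and 5 lower in MII-spheres than in MI-spheres, of 9 tested. Over all genes tested 31.1% were higher and 31.6% lower. This comparison and the preceding one share their libraries with the TGFβ comparisons, so only the values are set side by side. FOS was 3.16-fold lower (log2 -1.66 ± 0.10, adjusted p = 6.22e-13), FOSB 2.19-fold, FOSL2 1.91-fold, JUNB 1.74-fold and JUN 1.73-fold. ATF3 was 2.90-fold higher (log2 1.53 ± 0.15, adjusted p = 8.17e-09). FOSL1 was 1.73-fold higher (adjusted p = 0.00317), and without MII TGFβ replicate 3 the difference was log2 0.53 (adjusted p = 0.0592). EGR1, more abundant in MII-spheres before stimulation, differed by log2 0.28 ± 0.13 after it (adjusted p = 0.0707). EGR1 passed the test without MI TGFβ replicate 2 (log2 0.48, adjusted p = 0.000563) and with all 12 sphere libraries in 1 fit (0.28, adjusted p = 0.0192). JUND did not differ beyond its spread (95% interval -0.15 to 0.18), and EGR3 was below the count filter.

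In MDA-MB-231 cells, none of the 9 members tested was called between the libraries labelled SLUG KO and WT. Over all genes tested 1.45% were higher and 1.89% lower. By an unadjusted p under 0.05 in edgeR, ATF3 was higher and FOS, FOSB and EGR1 were lower, and DESeq2 called 1 higher (ATF3) and 2 lower (FOSB and EGR1). ATF3 was at 5.37, 4.27 and 7.20 CPM in WT and 10.4, 13.4 and 11.5 CPM in SLUG KO, with no overlap (log2 1.05 ± 0.25, adjusted p = 0.0744). EGR1 was at 1.61, 9.82 and 1.21 CPM in WT and 0.874, 0.274 and 0.407 CPM in SLUG KO (log2 -3.02 ± 0.92, adjusted p = 0.143). The highest of these EGR1 values, by far, came from WT replicate 2. FOSB was at 1.13, 2.73 and 1.29 CPM and 0.476, 0.365 and 0.679 CPM, again without overlap (log2 -1.77 ± 0.46, adjusted p = 0.101). FOS was at 2.89, 2.94 and 2.74 CPM and 1.83, 2.15 and 1.76 CPM (log2 -0.60 ± 0.23, adjusted p = 0.218). The FOS libraries of both groups were low beside spheres and did not overlap. EGR3 had 2, 11 and 3 counts in WT and 0, 2 and 1 in SLUG KO, too few to test.

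WT replicate 2 stood apart in several of the members. FOSL1, the main FOS-family gene of this line, was at 58.5, 378 and 66.3 CPM in WT and 82.8, 65.7 and 78.0 CPM in SLUG KO. JUND was at 22.4, 86.5 and 23.8 CPM and 43.5, 28.9 and 42.5 CPM, JUN at 95.5, 298 and 113 CPM and 109.5, 94.0 and 99.6 CPM, and FOSL2 at 175, 379 and 180.1 CPM and 175, 151 and 169.6 CPM. In each of these genes WT replicate 2 exceeded every other library of the pair. Against the mean of WT replicates 1 and 3, it was higher by 2.60 log2 units for FOSL1 and by 2.74 for EGR1, where genes of like GC content were higher by a median of 0.78 and 0.50. For JUND it was higher by 1.90, beside a median of 1.58, and for JUNB by 0.88, less than the median of 1.26 of genes of like GC content. Without it, ATF3 (log2 0.90, adjusted p = 0.000526), JUND (0.72, adjusted p = 0.00103) and JUNB (0.56, adjusted p = 0.0190) were called higher. EGR1 (-1.43, adjusted p = 0.0211) and FOSB (-1.26, adjusted p = 0.0262) were then called lower, and FOSL1 turned from -1.18 to 0.26 (adjusted p = 0.0618). Calls rose over all genes as well: 3013 were higher and 2579 lower of 17909 without it, against 252 and 329 of 17428 with it. On simulated counts of this comparison, 13% of genes changed by 1 log2 unit and 91% of those changed by 2 were recovered. The changed genes were drawn only from genes above a floor of mean CPM. FOS, FOSB, EGR1 and EGR3 lay below that floor in this pair, so these shares do not describe them.

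After depletion of SMAD2, SMAD3 and SMAD4, 2 members were higher and 5 lower than in Csi, and over all genes tested 16.3% were higher and 19.7% lower. The largest difference, in EGR1, was 1.70-fold. FOSL1 was at 149, 138 and 151 CPM in Csi and 104.1, 105.2 and 99.6 CPM in siSMAD2/3/4 (log2 -0.51 ± 0.04, adjusted p = 7.55e-11). FOSL2 was at 265, 270.0 and 273 CPM and 227, 221 and 209.7 CPM (log2 -0.30 ± 0.04, adjusted p = 2.07e-07). EGR1 was at 6.597, 6.48 and 6.32 CPM and 3.56, 3.47 and 4.42 CPM (log2 -0.77 ± 0.13, adjusted p = 1.55e-05). These 3 genes, together with FOS and JUNB, were lower in every depleted library than in any Csi library. FOS (log2 -0.60 ± 0.19, adjusted p = 0.0108) and JUNB (log2 -0.23 ± 0.07, adjusted p = 0.0101) passed more narrowly. JUND was at 191, 207 and 178 CPM and 245, 264 and 206 CPM (log2 0.31 ± 0.06, adjusted p = 7.46e-05), and JUN at 157, 163 and 147 CPM and 171, 180.3 and 160.0 CPM (log2 0.12 ± 0.05, adjusted p = 0.0336). Both were called higher although their libraries overlapped. ATF3 (95% interval -0.26 to 0.14), FOSB (-0.83 to 0.34) and EGR3 (-0.54 to 1.31) were not called.

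Among the 4 libraries of this pair that share a flow cell name, 3 Csi and siSMAD2/3/4 replicate 3, FOSL1 (log2 -0.54, adjusted p = 1.33e-07), FOSL2 (-0.34, adjusted p = 3.48e-05), EGR1 (-0.53, adjusted p = 0.0292) and JUNB (-0.36, adjusted p = 0.0101) were still called lower. The lone depleted library was assumed to vary like the Csi libraries. JUND (0.12, adjusted p = 0.222), JUN (0.055, adjusted p = 0.632) and FOS (-0.57, adjusted p = 0.148) were not. With all 6 libraries, the FOS call was also lost without Csi replicate 1 (adjusted p = 0.0690), the JUNB call without siSMAD2/3/4 replicate 3 (adjusted p = 0.0945), and the JUN call without Csi replicate 3, siSMAD2/3/4 replicate 1 or siSMAD2/3/4 replicate 2.

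**Figure D4:**
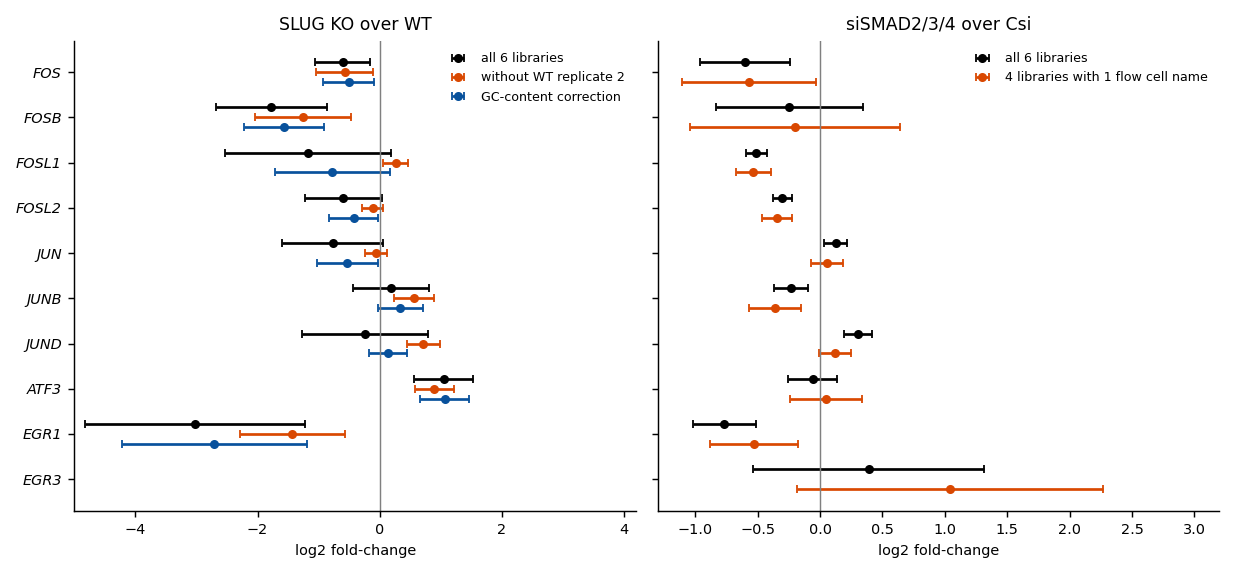
Log2 fold-change (x axis) with 95% interval of the members in SLUG KO over WT (left, 9 genes) and in siSMAD2/3/4 over Csi (right, 10 genes). Black points use all 6 libraries, and coloured points leave out WT replicate 2 or correct for GC content (left), or use the 4 libraries with 1 flow cell name (right). On the left all members but ATF3 lie farther right without WT replicate 2. On the right the intervals of FOSL1, FOSL2, JUNB and EGR1 stay left of 0, and that of FOS does so narrowly.

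Other genes of the same pathways were counted from lists. Of 25 other immediate early genes, 3 were higher and 16 lower with TGFβ in MI-spheres, and 1 was higher and 20 lower in MII-spheres, with median log2 fold-changes of -0.78 and -0.74. The strongest calls among those lower were SGK1, a serum-induced kinase (log2 -1.85 ± 0.06, adjusted p = 3.31e-16), and PPP1R15A (log2 -1.74 ± 0.06, adjusted p = 2.86e-15) in MI-spheres. In MII-spheres they were ZFP36, which destabilizes early mRNAs (log2 -1.64 ± 0.07, adjusted p = 6.24e-28), and DUSP1, a MAP kinase phosphatase (log2 -1.37 ± 0.06, adjusted p = 2.90e-26). KLF10, also named TGFβ-inducible early gene, rose in both (1.84-fold in MI-spheres, 1.46-fold in MII-spheres). EGR2 and EGR4, the remaining EGR genes, fell in MII-spheres (log2 -1.88 ± 0.31 and -1.80 ± 0.46) and were higher in MII Ctrl than in MI Ctrl (log2 2.27 ± 0.28 and 2.83 ± 0.50). Of 11 tested AP-1 bZIP relatives, 2 were higher and 6 lower in MI-spheres and 1 was higher and 3 lower in MII-spheres. MAFF, a small MAF factor, was lower in both lines (log2 -2.16 ± 0.08 in MI-spheres and -0.97 ± 0.06 in MII-spheres). MAF, a large MAF factor with an activation domain, rose in MI-spheres (3.50-fold).

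Genes known as AP-1 targets went mostly in the opposite direction to the members. In MI-spheres, 11 were higher and 4 lower of 18 tested, and in MII-spheres 13 were higher and 1 lower of 16 tested, with medians of 0.32 and 0.61. VEGFA, an angiogenic growth factor, was 2.08-fold higher in MI-spheres. HBEGF, a growth factor of the EGF family, was lower in both lines (2.15-fold and 1.83-fold), and CXCL8 was 3.55-fold lower in MI-spheres. In MII Ctrl against MI Ctrl, 3 of 18 targets were higher and 14 lower, with CXCL8 15.9-fold and PLAU, the urokinase gene, 12.2-fold lower. After SMAD depletion 1 of 14 was higher and 8 were lower, among them PLAU (1.88-fold). In SLUG KO, IL6 (4.39-fold) and PLAU (2.49-fold) were higher and MMP1, a collagenase, 16.7-fold lower, of 14 tested. Without WT replicate 2 these were 3.92-fold and 2.41-fold higher and 18.2-fold lower, and 7 targets were higher and 1 lower. Over all 17909 genes tested in that setting, 3013 were higher and 2579 lower. With the 4 libraries of 1 flow cell name, 1 target was higher and 8 were lower after SMAD depletion, of 15 tested, with PLAU 1.97-fold lower.

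Of the kinases and factors upstream, all 6 serum response and ternary complex factor genes were tested, and 2 were higher in MI-spheres with TGFβ (ELK3, log2 0.26 ± 0.08, and ELK1, log2 0.26 ± 0.09) with none lower. In MII-spheres 2 were higher and MRTFB was lower (1.19-fold). Of 15 MAP kinase pathway genes, 4 rose and 4 fell in MI-spheres, and 7 rose and 3 fell in MII-spheres, with changes of at most 1.41-fold (HRAS in MI-spheres) among the strongest calls. ERK feedback genes, which ERK activity induces, were split: 7 higher and 5 lower of 12 in MI-spheres, and 6 higher and 4 lower in MII-spheres. DUSP6 was 2.78-fold higher and DUSP5 3.49-fold lower in MI-spheres, and DUSP5 was 1.58-fold lower in MII-spheres. Between the unstimulated lines, 8 of 12 were higher in MII Ctrl, led by PHLDA1 (7.41-fold) and ETV4 (5.46-fold), and 3 were lower. Among 7 ATF4 and stress genes that accompany ATF3, 2 were higher and 4 lower in MI-spheres and 1 was higher and 4 lower in MII-spheres, with CHAC1 6.85-fold and 3.16-fold lower. The 9 heat shock genes were mixed, 4 higher and 3 lower in MI-spheres and 4 higher and 4 lower in MII-spheres. Of 6 direct TGFβ response genes, 3 were higher and 1 lower in MI-spheres and 2 were higher and 1 lower in MII-spheres. Among these, PMEPA1, a feedback inhibitor of SMAD signalling, was 2.72-fold and 1.18-fold higher, and SNAI1 was 4.67-fold and 5.76-fold lower. For SNAI1 this is opposite to the study's RT-qPCR, which reported it as upregulated by 16 h of TGFβ in MI- and MII-spheres. The reason for the difference was not tested. Of 5 mesenchymal markers 4 were higher in MI-spheres and 2 of 4 tested in MII-spheres, with none lower, and of the luminal hormone receptor markers 2 were lower in each line and 1 was higher in MII-spheres.

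**Figure D5:**
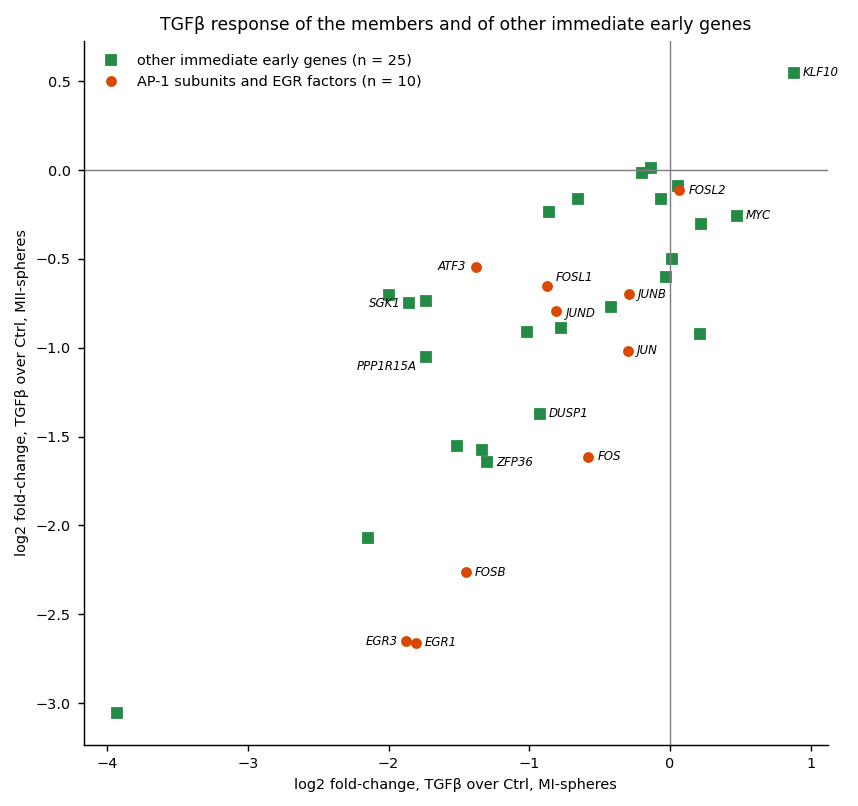
Log2 fold-change with TGFβ in MI-spheres (x axis) and in MII-spheres (y axis), estimated from 3 against 3 libraries in each line, for the 10 members (circles) and 25 other immediate early genes (squares), with the members and the early genes of lowest adjusted p labelled. All members but FOSL2, and most of the early genes, lie in the lower left, and KLF10 lies at the upper right.

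By Pearson's r of log2 CPM over the 24 libraries, among 15175 genes with a mean CPM of at least 1, the genes most like each member were as follows. They were HOXA2 for FOS (r = 0.993), VPS13D for FOSB (0.984), WWC3 and CCN1 for FOSL1 (0.993 and 0.989), DUSP7 for FOSL2 (0.971) and ZNF707 for JUN (0.929). For the others they were CEBPA for JUNB (0.988), CNNM3 for JUND (0.989), PLA2R1 for ATF3 (0.947), ERICH1 for EGR1 (0.965) and FAM157D for EGR3 (0.921). These r are descriptions across libraries that share cell line, culture and batch, and FOS, FOSB, FOSL1 and JUNB vary mainly between the lines.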

How the data were processed

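RNA-seq libraries were made from total RNA with a stranded kit after removal of ribosomal RNA. The authors trimmed reads (Trimmomatic), aligned them to GRCh38 (STAR) and counted them per gene with featureCounts (Subread 2.0.0, GENCODE v38, strand not used), and deposited raw counts of 60708 genes per library. The 40 samples include 16 of ATAC-seq, which were not analysed here. The authors' own DESeq2 results were not used.

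Counts were tested in edgeR 4.0.16 (R 4.3.3): filterByExpr, TMM scaling, quasi-likelihood test and Benjamini-Hochberg adjustment over all genes passing the filter (15878 to 18591 per comparison). Each comparison used its own 6 libraries, and the interaction of line and TGFβ the 12 sphere libraries. The SE is the log2 fold-change divided by the square root of the F statistic, and 95% intervals are normal. CPM was TMM-scaled over 24 libraries and TPM used the exon lengths in the files. The members and all gene lists were chosen with earlier results of these data known, and no p-value was adjusted over a list alone. Lists were reported by their counts, and for each direction and comparison the 2 called genes of lowest adjusted p were named, apart from genes not reported here. Likeness was ranked by r of log2 CPM (prior count 2). With 3 libraries against 3, an exact permutation test cannot go below p = 0.1, so none is given. On simulated counts, all 100 genes changed by 1 log2 unit were recovered in each comparison except SLUG KO against WT (13 of 100). The changed genes were drawn only from genes above a floor of mean CPM, which EGR3 did not reach in any comparison. FOSL1 also lay below that floor in MI TGFβ against MI Ctrl and in MII TGFβ against MI TGFβ. So did FOS and FOSB after SMAD depletion, and FOS, FOSB and EGR1 in SLUG KO against WT. The recovery on simulated counts does not describe these genes there.

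Alternatives were DESeq2 1.42.0 size factors and its Wald test, no filter on low counts, at least 10 counts in every library, a replicate block, all 12 sphere libraries in 1 fit, leaving out each library, 4 libraries with 1 flow cell name, and, chosen after seeing the data, a GC-content correction (each library's smooth trend on the GC content of GENCODE v44 transcripts, as an offset in edgeR). The list counts were also taken without WT replicate 2 and with those 4 libraries, likewise added after seeing the data. Same-numbered replicates did not deviate together (r -0.12 to 0.03, 0 of them over 0.1), so no pairing by number was seen. How the replicates were set up is not given, and these r cannot settle it. Tables and figures used Python 3.11.15 with pandas 2.3.3, numpy 2.4.6 and matplotlib 3.10.9.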

Additional observations from a re-analysis of the deposited data

Results flagged for a closer look

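In 6 of the 10 genes the response to TGFβ differed between MI- and MII-spheres by the interaction test of edgeR. The difference of log2 fold-changes, MII minus MI, was -1.02 ± 0.10 for FOS, -0.84 ± 0.13 for EGR1, -0.80 ± 0.13 for FOSB, -0.70 ± 0.08 for JUN and -0.39 ± 0.07 for JUNB, all of which fell more in MII-spheres. It was 0.85 ± 0.16 for ATF3, which fell more in MI-spheres. All 12 sphere libraries entered each value, and these 6 calls held when any 1 library was left out. Unstimulated levels of 5 of them differed between the lines as well, with EGR1 and ATF3 higher and FOS, FOSB and JUNB lower in MII Ctrl, while JUN was not called there. Their part in the difference of responses was not tested.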

How the results depend on the processing

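Over 920 values of the members under alternatives, 855 kept direction and call, 15 lost a call, 26 gained one and 24 changed sign, and for these the cause was not tested. Higher members with TGFβ in MI-spheres numbered 1 (FOSL2, log2 0.13) after the GC-content correction, and 0 to 1 with a library left out (1 without MI TGFβ replicate 3). In MII TGFβ against MI TGFβ, 1 to 3 were higher with a library left out. In SLUG KO against WT, 1 was higher and 2 were lower with DESeq2 and also with no low-count filter, and 1 was higher and 1 lower after the GC-content correction. With a library left out the counts ran from 0 to 3 higher and 0 to 2 lower, the most without WT replicate 2. That setting called 3013 of 17909 genes higher and 2579 lower. After SMAD depletion, 1 to 2 were higher with a library left out and 0 with the 4 libraries of 1 flow cell name. JUND, near 0 in several comparisons, changed sign most often. In MII Ctrl against MI Ctrl it was 0.0038 with at least 10 counts in every library and -0.084 to 0.067 with a library left out. In MII TGFβ against MI TGFβ it was -0.013 with DESeq2, -0.024 with no filter, -0.24 after the GC-content correction and -0.037 to 0.046 with a library left out. In SLUG KO against WT it was 0.14 after the GC-content correction and -0.52 to 0.72 with a library left out. In the interaction it was -0.082 after the GC-content correction and -0.093 to 0.086 with a library left out. With a library left out, FOSL1 ran from -1.56 to 0.26 in SLUG KO against WT and from -0.058 to 0.36 in the interaction, and EGR3 from -0.052 to 0.74 after SMAD depletion. ATF3 was 0.048 after SMAD depletion with the 4 libraries of 1 flow cell name. With the replicate block, JUND in SLUG KO against WT turned to 0.085, EGR1 in MII TGFβ against MI TGFβ was called (0.30, adjusted p = 0.0239), giving 3 higher there, and in the other comparisons the counts were those without the block. Relative to the plain library total, 66 of 80 group levels moved by less than 1 SD. Family shares from CPM, which ignore length, moved by more than 1 SD in 53 of 56 values. EGR3 rests on few counts, and its values are imprecise at this depth.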

Other observations

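In MDA-MB-231 cells depleted of SMAD2, SMAD3 and SMAD4, stress genes were lower or not called. Of 9 heat shock genes, 6 were lower and none higher (edgeR), among them HSPA8 (log2 -0.27 ± 0.04, adjusted p = 2.63e-06), a constitutive chaperone, and HSP90AA1 (log2 -0.16 ± 0.04). Of the 7 ATF4 and stress genes, 4 were lower, with CEBPB (log2 -0.27 ± 0.06) and TRIB3 (log2 -0.24 ± 0.06) leading. Other immediate early genes were split, 9 higher and 7 lower of 24 tested. TRIB1 was 1.67-fold higher and CCN2, a YAP and TGFβ target, 1.52-fold lower. The ERK feedback genes were split as well, 3 higher and 4 lower of 12, with SPRY2 1.58-fold higher and DUSP6 1.43-fold lower. With the 4 libraries of 1 flow cell name, 2 heat shock and 3 ATF4 and stress genes were lower, 5 of 25 other immediate early genes were higher and 4 lower, and 2 ERK feedback genes were higher and 3 lower. HSP90AA1 was then not called (log2 -0.12, adjusted p = 0.157), and the other genes named here were.

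Between the unstimulated sphere lines, 15 of 25 other immediate early genes were higher and 9 lower in MII Ctrl. CCN2 was 8.55-fold higher and NR4A1, an orphan nuclear receptor, 7.45-fold lower. In the libraries labelled SLUG KO, KLF4 was higher (log2 0.88 ± 0.18, adjusted p = 0.0474) and CCN2 lower (log2 -0.99 ± 0.18, adjusted p = 0.0297) of 24 other immediate early genes tested. Of the ERK feedback genes, SPRY1 was lower (log2 -1.61 ± 0.19, adjusted p = 0.00663) there. Without WT replicate 2, KLF4 (log2 1.00), CCN2 (-0.86) and SPRY1 (-1.50) were called as well, with 8 other immediate early genes higher and 4 lower, and 1 ERK feedback gene higher and 7 lower. Over all 17909 genes then tested, 3013 were higher and 2579 lower.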
